A study of Mus musculus with 4 samples.

Results

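Histone and DNA modifying enzymes were followed in splenic helper T cells of mice labelled wild type (WT) or lacking RIPK1 in T cells (KO). The genes were taken by symbol: histone deacetylases (Hdac), sirtuins (Sirt), lysine demethylases (Kdm), SET domain methyltransferases (Setd), Ezh1 and Ezh2, the Dnmt3 genes and Tet1, Tet2 and Tet3. The symbols matched 52 genes, and 49 of the 23700 rows of the expression tables were kept after Kdm5c, Kdm5d and Kdm6a were left out. Of the 49 genes, 44 reached 1 FPKM (fragments of a gene scaled to its transcript length and to the mapped total of its library) in at least 2 of the 4 libraries and were tested. Dnmt3l, Hdac9, Hdac11, Kdm4d and Tet1 did not.

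Acetyl and methyl groups on histone tails set how readily a stretch of chromatin is read, and methyl groups on cytosine mark DNA that is mostly kept silent. Deacetylases and sirtuins remove acyl groups, SET domain enzymes and the EZH proteins add methyl groups to lysines, and KDM enzymes take them off. DNMT3 enzymes place new methyl groups on cytosine, and TET enzymes oxidise them, which starts their removal. In helper T cells these enzymes are known for fixing or opening cytokine genes as the cells differentiate. The symbols cover more than chromatin: Hdac6 acts mainly on tubulin, Hdac10 on polyamines, Setd3 on a histidine of actin, Setd6 on the NF-kB subunit RelA, and Sirt3, Sirt4 and Sirt5 work in mitochondria. Dnmt3l has no catalytic activity of its own. Some relatives stand in the tables under older symbols (Jhdm1d, Jmjd1c and Jmjd5) and are not among the 49.

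All 4 libraries came from helper (CD4) T cells of the spleen of C57BL/6 mice aged 43 weeks. There were 2 libraries labelled wild type and 2 labelled as a knockout of RIPK1, a kinase of cell death and NF-kB signalling, and the knockout is described as limited to T cells. Neither the Cre line nor the deleted part of Ripk1 nor any gate used to isolate the cells is stated in the labels, and the titles of all 4 samples carry the word Ctrl without an explanation. The labels number the libraries but do not say that they came from separate mice, so the p-values measure only the spread between libraries, which may be technical.

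Ripk1 itself went against the labels. Its level was 5.61 and 5.602 FPKM in the WT libraries and 10.4 and 9.54 FPKM in those labelled KO, a log2 change of 0.73 ± 0.17 (SE; adjusted p = 0.0262, limma). After the trimmed-mean scaling described below, the log2 change of Ripk1 was 0.33 (adjusted p = 0.192, limma). With the deleted part not stated, these gene-level values are no check of the deletion. The libraries labelled KO also read higher for genes at large. Of 11074 genes tested, 2832 passed upward and 111 downward (limma, Benjamini-Hochberg adjusted p under 0.05), and the median gene stood 0.38 higher on the log2(FPKM + 1) scale. Counts and medians of the enzyme genes are therefore also given relative to that median or after a trimmed-mean scaling of the libraries. That scaling brings the median gene to 0.01 and leaves 501 genes higher and 415 lower. The calls as deposited were 96.2% higher, and those after trimmed-mean scaling 54.7%. Values of single genes are as deposited unless a scaling is named, so they hold the shift of genes at large. Estimated depth was 21200000 and 21900000 fragments in the WT libraries and 17500000 and 19100000 in those labelled KO.

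The promoters of the 3 enzyme genes with the largest log2 change are shown because the values below turn on these genes. Each runs 5′ to 3′ on the gene's own strand, from 250 bases before to 50 bases after the annotated start (RefSeq, GRCm38.p6). Capitals mark CG dinucleotides, the substrate of the DNMT3 and TET enzymes. The Kdm2b window lies on the minus strand at chr5:122989050-122989349 and is the farthest upstream of 4 annotated starts. The Ezh2 window lies on the minus strand at chr6:47594981-47595280, and the Setd5 window on the plus strand at chr6:113104685-113104984.
Kdm2b: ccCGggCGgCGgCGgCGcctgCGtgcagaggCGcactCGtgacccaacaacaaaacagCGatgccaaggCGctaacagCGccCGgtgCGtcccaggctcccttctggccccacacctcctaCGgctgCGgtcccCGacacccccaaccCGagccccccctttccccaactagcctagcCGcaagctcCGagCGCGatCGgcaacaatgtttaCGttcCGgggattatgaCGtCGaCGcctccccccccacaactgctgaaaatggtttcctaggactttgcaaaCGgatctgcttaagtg
Ezh2: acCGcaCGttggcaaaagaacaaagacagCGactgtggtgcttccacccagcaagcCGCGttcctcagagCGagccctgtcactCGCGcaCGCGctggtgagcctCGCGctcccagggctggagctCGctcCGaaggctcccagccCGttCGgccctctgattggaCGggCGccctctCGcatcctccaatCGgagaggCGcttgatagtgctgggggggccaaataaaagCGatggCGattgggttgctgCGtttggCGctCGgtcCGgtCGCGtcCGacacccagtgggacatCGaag
Setd5: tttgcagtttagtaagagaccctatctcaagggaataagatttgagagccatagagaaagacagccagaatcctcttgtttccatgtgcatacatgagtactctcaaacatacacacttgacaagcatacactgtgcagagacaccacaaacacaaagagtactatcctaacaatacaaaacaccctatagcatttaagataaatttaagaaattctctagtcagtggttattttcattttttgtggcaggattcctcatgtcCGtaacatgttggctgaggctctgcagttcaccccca
The Kdm2b window held 28 CG dinucleotides and the Ezh2 window 31, while the Setd5 window held 1. Each count describes only the window at the annotated start shown. Whether transcription in these cells begins at these starts was not tested, so the Setd5 count may not describe its main promoter. Promoters were found for 41 of the 49 genes (60 windows, some genes entering at several starts). Their median was 22 CG dinucleotides against 7 over all 32851 windows. That background also holds genes too low to test here. Windows of tested genes alone were not compared, so the difference is not shown to be particular to the enzyme genes. The Ezh2 window also held TTTGGCGC, a motif of the E2F factors of the cell cycle, in forward orientation from base 254 of the window. Searched on both strands, TTTGGCGC stood in 0.514% of all windows and, among the 41 genes, in that of Ezh2 alone. A second E2F motif, TTTCCCGC, was found at Sirt4 and in 1.07% of all windows. The ETS motif CCGGAAG stood in 13.3% of the 60 windows against 8.86% of all windows, and the NF-Y motif CCAAT in 40% against 37.4%. The CRE motif TGACGTCA, in 1.79% of all windows, was found in none of those of the 41 genes. A match describes letters in a window and was not tied to binding or to the changes below.

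Most of these enzyme genes were higher in the libraries labelled KO. Of the 44 tested, 23 passed upward and 0 downward, which is 52.3% against a background of 25.6% upward and 1.0% downward over all genes tested (limma; 29 of the 44 were higher at an unadjusted p under 0.05). Both libraries labelled KO lay above both WT libraries for 37 of the 44 tested genes, against 58.5% of all tested genes, and for 40 of all 49. Only Tet1 of the 49, under 1 FPKM in all 4 libraries and untested, lay below in both. The share of all tested genes lying below in both is not given here. All 23 genes that passed were among those with separate groups, so the separation adds no support to a call. The genes that rose went up by 1.68-fold (Kdm4c) to 4.32-fold (Kdm2b) in mean FPKM, and 16 of the 23 by at least 2-fold. The median log2 change of the 44 was 0.65, which is 0.27 above the median gene, and 34 of the 44 lay above that gene. After trimmed-mean scaling 2 of the 44 passed upward (Kdm2b and Setd5) and 0 downward, against 4.52% and 3.75% of all genes. The other 21 genes that passed as deposited did not pass after this scaling. After quantile normalization 0 of the 44 passed (16 were higher and 2 lower at an unadjusted p under 0.05, limma), against 1.62% and 0.695% of all genes. Without WT 1, 0 of the 44 passed (24 were higher at an unadjusted p under 0.05, limma), and 9 genes passed upward in all. Without WT 2, KO 1 or KO 2 the median log2 change of the 44 was 0.74, 0.71 and 0.66. These medians lay 0.26, 0.36 and 0.25 above the median gene of the same fit. Ezh1, Kdm4b, Kdm4c and Setdb2 passed in none of the 4 fits that left out 1 library.

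**Figure D1:**
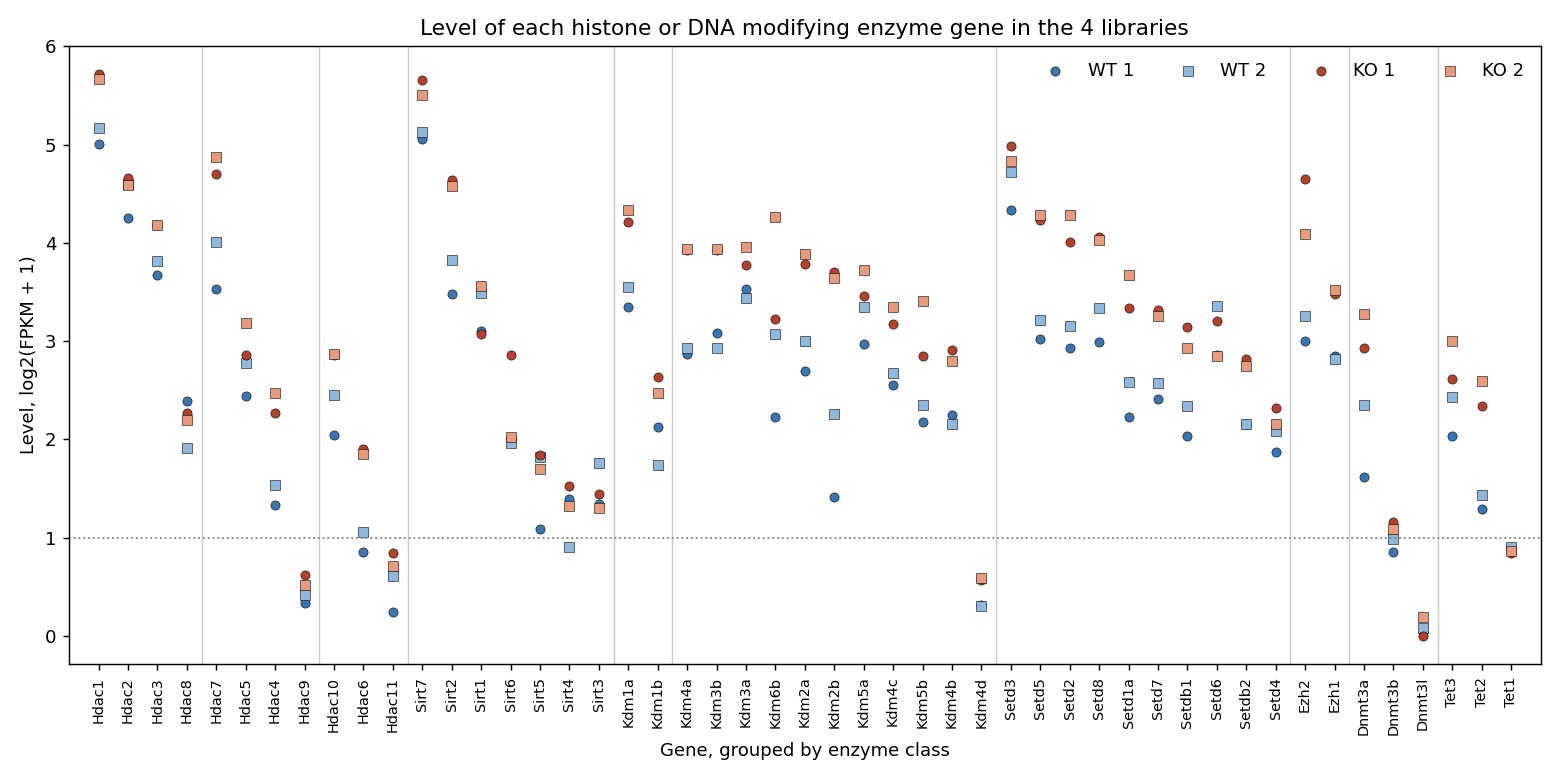
Level of each of the 49 genes in the 4 libraries, as log2(FPKM + 1), grouped by enzyme class; blue symbols are WT and red symbols the libraries labelled KO, and the dotted line is 1 FPKM. In 40 of the 49 genes both red symbols lie above both blue ones, and Hdac1 and Sirt7 have the highest levels.

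The levels spanned a wide range. Hdac1 and Sirt7 were the most abundant in WT libraries, with means of 33.1 ± 2.68 and 33.1 ± 1.09 FPKM (SD, n = 2), which do not differ beyond their spread. They were followed by Setd3 (22.3 ± 4.42 FPKM) and Hdac2 (20.6 ± 3.67 FPKM), which also overlap. The least abundant was Dnmt3l, at 0 to 0.142 FPKM over the 4 libraries, a gene best known from germ cells. FPKM is a level per transcript length, so these comparisons between genes are per length.

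**Figure D2:**
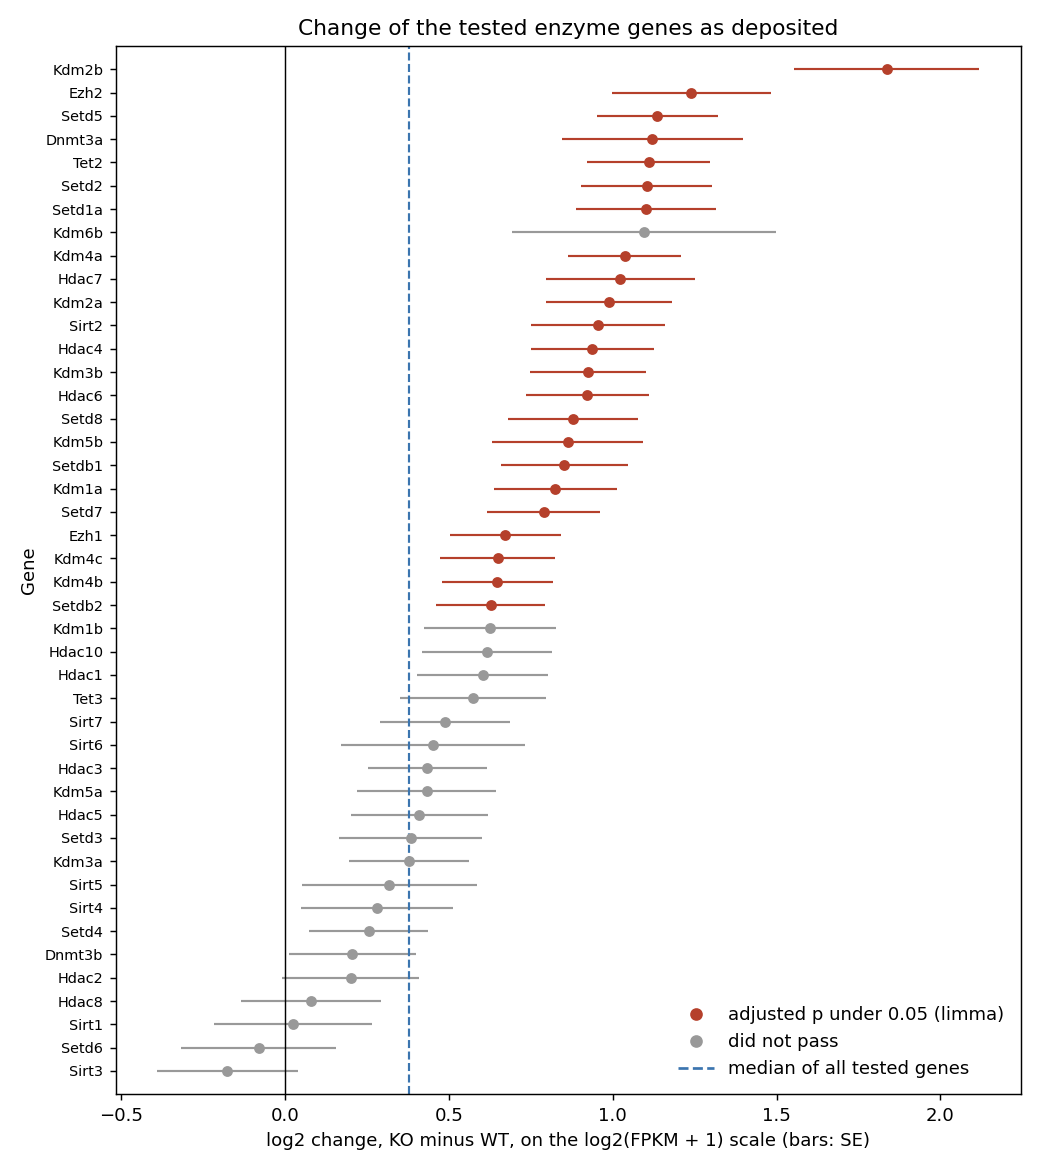
Log2 change (KO minus WT, log2(FPKM + 1) scale) of the 44 tested genes with its SE; red points passed an adjusted p under 0.05 and the dashed line is the median of all tested genes. Kdm2b stands apart at 1.84, and Sirt3 and Setd6 are the 2 genes below 0.

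The class I deacetylases, of which Hdac1, Hdac2 and Hdac3 are catalytic cores of nuclear corepressor complexes, gave 0 of 4 calls, with a median log2 change of 0.32 that lies 0.06 below the median gene. Hdac1 measured 31.2 and 35.0 FPKM in the WT libraries and 51.6 and 49.8 FPKM in those labelled KO (log2 change 0.60 ± 0.20 SE; adjusted p = 0.0656, limma). Hdac3, the enzyme of the NCoR complexes, measured 11.8 and 13.1 against 17.1 and 17.1 FPKM. In both genes the libraries labelled KO lay above those of WT, as in 58.5% of all tested genes, and the adjusted p missed the threshold. Hdac2, the partner of Hdac1, overlapped between groups (18.0 and 23.2 against 24.2 and 23.1 FPKM), as did Hdac8, a deacetylase of cohesin (4.26 and 2.76 against 3.80 and 3.59 FPKM).

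Class IIa deacetylases, which shuttle between nucleus and cytoplasm and bind MEF2 factors, had 2 calls among 3 tested genes. After trimmed-mean scaling 0 of the 3 passed. Hdac7, the class IIa enzyme prominent in T cells, measured 10.5 and 15.04 FPKM in the WT libraries and 25.1 and 28.4 FPKM in those labelled KO (2.09-fold; log2 change 1.02 ± 0.23 SE; adjusted p = 0.0235, limma). Hdac4 rose from 1.52 and 1.90 to 3.81 and 4.57 FPKM (log2 change 0.94; adjusted p = 0.0188). Neither gene overlapped between groups, and 58.5% of all tested genes had both libraries labelled KO above both WT libraries. Hdac5 measured 4.42 and 5.86 against 6.24 and 8.08 FPKM and did not pass (adjusted p = 0.179), and Hdac9 stayed under 1 FPKM in all 4 libraries (0.265 and 0.331 against 0.537 and 0.431).

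Of the class IIb and IV deacetylases, Hdac6 passed. It measured 0.804 and 1.09 FPKM in the WT libraries and 2.74 and 2.62 FPKM in those labelled KO (2.83-fold; log2 change 0.92 ± 0.19 SE; adjusted p = 0.0199, limma). The groups were far apart at a low level. Hdac10 measured 3.14 and 4.46 against 6.28 and 6.28 FPKM (adjusted p = 0.0595), and Hdac11, the class IV enzyme, lay at 0.183 and 0.532 against 0.792 and 0.636 FPKM, untested.

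The sirtuins, NAD-dependent deacylases, passed in 1 of 7 genes, and their median log2 change of 0.32 lay 0.06 below the median gene. The gene that passed was Sirt2, a mainly cytoplasmic enzyme: 10.2 and 13.2 FPKM in the WT libraries and 24.0 and 22.9 FPKM in those labelled KO (2.0-fold; log2 change 0.96 ± 0.20 SE; adjusted p = 0.0216, limma). Sirt1, the nuclear enzyme closest to yeast Sir2, measured 7.58 and 10.2 against 7.44 and 10.8 FPKM. Its groups overlapped fully, with a log2 change of 0.02 ± 0.24. Sirt3, the main mitochondrial deacetylase, had the lowest change of all 44 genes: 1.54 and 2.38 against 1.73 and 1.46 FPKM, a log2 change of -0.18 ± 0.21 (adjusted p = 0.553, limma) and overlapping groups. Sirt4 and Sirt5 also overlapped, and Sirt6, which acts at telomeres and in DNA repair, was high in KO 1 alone (3.04 and 2.90 against 6.24 and 3.06 FPKM). Sirt7, the nucleolar sirtuin, measured 32.4 and 33.9 against 49.4 and 44.4 FPKM and did not pass (adjusted p = 0.111).

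The flavin-dependent demethylases gave 1 call of 2, and 0 after trimmed-mean scaling. Kdm1a (LSD1), which works with the CoREST corepressor, measured 9.14 and 10.7 FPKM in the WT libraries and 17.5 and 19.1 FPKM in those labelled KO (1.85-fold; log2 change 0.82 ± 0.19 SE; adjusted p = 0.0251, limma). Kdm1b measured 3.36 and 2.34 against 5.23 and 4.57 FPKM, apart in the same order, with an adjusted p of 0.0591.

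Jumonji demethylases, which need iron and oxoglutarate, gave 7 calls among 10 tested genes, against 25.6% upward over all tested genes. Their median log2 change of 0.89 lay 0.51 above the median gene, and after trimmed-mean scaling 1 of the 10 passed. Kdm2b, which binds unmethylated CG islands and brings Polycomb complexes to them, had the largest change of the 44 genes. It measured 1.67 and 3.78 FPKM in the WT libraries and 12.1 and 11.5 FPKM in those labelled KO (4.32-fold; log2 change 1.84 ± 0.28 SE; adjusted p = 0.0136, limma). The 2 WT libraries were further apart than those labelled KO, and both lay below them. With trimmed-mean scaling its log2 change was 1.47 (adjusted p = 0.0344), and without WT 1 its adjusted p was 0.0871. The related Kdm2a rose from 5.47 and 6.98 to 12.8 and 13.8 FPKM (log2 change 0.99; adjusted p = 0.0179).

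The other Jumonji genes fall by the mark they remove. Kdm3b, which removes repressive methyl marks from histone H3, measured 7.44 and 6.64 FPKM in the WT libraries and 14.2 and 14.3 FPKM in those labelled KO (2.02-fold; adjusted p = 0.0176, limma). Its paralog Kdm3a measured 10.6 and 9.84 against 12.6 and 14.5 FPKM and did not pass (adjusted p = 0.162). The Kdm4 genes, which act on repressive and on gene-body marks, passed in all 3 tested members. Kdm4a went from 6.31 and 6.60 to 14.2 and 14.3 FPKM (log2 change 1.04; adjusted p = 0.0143). Kdm4b went from 3.75 and 3.47 to 6.50 and 5.95 FPKM (adjusted p = 0.0346), and Kdm4c from 4.86 and 5.37 to 8.03 and 9.15 FPKM (adjusted p = 0.0380). The last pair had smaller changes, of 0.65 each on the log2 scale. Kdm4d was near 0.242 FPKM in the WT libraries and 0.496 FPKM in those labelled KO, too low to test.

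Kdm5b, which removes methyl marks from active promoters, measured 3.54 and 4.11 FPKM in the WT libraries and 6.20 and 9.63 FPKM in those labelled KO (2.07-fold; log2 change 0.86 ± 0.23 SE; adjusted p = 0.0361, limma). Kdm5a, with the same substrate, measured 6.86 and 9.16 against 9.997 and 12.2 FPKM (adjusted p = 0.164). Kdm6b, which removes the Polycomb mark and is induced by inflammatory signals, had a large change that did not pass. It measured 3.68 and 7.44 against 8.37 and 18.2 FPKM, a log2 change of 1.095 ± 0.40 with an adjusted p of 0.0842 (limma). Library 2 was about as far above library 1 in both groups.

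SET domain genes gave 7 calls among 10, against 25.6% upward over all tested genes. Their median log2 change of 0.82 lay 0.44 above the median gene, and after trimmed-mean scaling 1 of the 10 passed. Setd5 had the largest change of them: 7.13 and 8.31 FPKM in the WT libraries and 17.7 and 18.5 FPKM in those labelled KO (2.35-fold; log2 change 1.14 ± 0.18 SE; adjusted p = 0.0140, limma). It also passed after trimmed-mean scaling (log2 change 0.72; adjusted p = 0.0462). Setd2, which methylates histone H3 along transcribed genes, rose from 6.63 and 7.87 to 15.1 and 18.5 FPKM (log2 change 1.103; adjusted p = 0.0160). Setd1a, a methylase of active promoters, rose from 3.69 and 4.98 to 9.08 and 11.8 FPKM (log2 change 1.101; adjusted p = 0.0181). In all 3 both libraries labelled KO lay above both WT libraries, as in 58.5% of all tested genes.

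Setd8, which places a single methyl group on histone H4 and is tied to cell division, rose from 6.94 and 9.07 to 15.6 and 15.3 FPKM (1.93-fold; adjusted p = 0.0241, limma). Setd7, whose substrates include histone H3 and p53, rose from 4.34 and 4.95 to 8.95 and 8.53 FPKM (1.88-fold; adjusted p = 0.0226). The silencing methylases passed as well: Setdb1 measured 3.11 and 4.05 against 7.86 and 6.63 FPKM (adjusted p = 0.0245), and Setdb2 3.47 and 3.46 against 6.07 and 5.73 FPKM (adjusted p = 0.0355). In all 4 genes the libraries labelled KO lay above those of WT, as in 58.5% of all tested genes. The 3 genes that did not pass were Setd3 (19.1 and 25.4 against 30.6 and 27.6 FPKM), Setd4 (2.67 and 3.25 against 3.98 and 3.46 FPKM) and Setd6, which overlapped (6.26 and 9.26 against 8.24 and 6.21 FPKM; log2 change -0.08 ± 0.24).

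Both EZH genes, the alternative catalytic subunits of Polycomb repressive complex PRC2, passed. Ezh2, the form of dividing cells, measured 7.02 and 8.57 FPKM in the WT libraries and 24.1 and 16.1 FPKM in those labelled KO (2.58-fold; log2 change 1.24 ± 0.24 SE; adjusted p = 0.0182, limma). KO 1 was higher than KO 2, and both were above WT. Ezh1, the form of resting cells, measured 6.18 and 6.04 against 10.2 and 10.5 FPKM (1.69-fold; log2 change 0.67; adjusted p = 0.0316). After trimmed-mean scaling the adjusted p was 0.0562 for Ezh2 and 0.286 for Ezh1.

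Among the DNA methyltransferases, Dnmt3a passed. It measured 2.07 and 4.10 FPKM in the WT libraries and 6.63 and 8.71 FPKM in those labelled KO (2.49-fold; log2 change 1.12 ± 0.28 SE; adjusted p = 0.0295, limma). Dnmt3b was lower throughout, at 0.807 and 0.980 against 1.23 and 1.13 FPKM, and did not pass (adjusted p = 0.441). Of the TET dioxygenases Tet2 passed, at 1.44 and 1.70 against 4.07 and 5.05 FPKM (2.90-fold; log2 change 1.11 ± 0.19 SE; adjusted p = 0.0146, limma). Tet3 measured 3.09 and 4.41 against 5.13 and 7.003 FPKM (adjusted p = 0.0992). Tet1, the form best known from embryonic stem cells, was the gene lower in both libraries labelled KO, at 0.875 and 0.867 against 0.796 and 0.822 FPKM, and was too low to be tested.

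**Figure D3:**
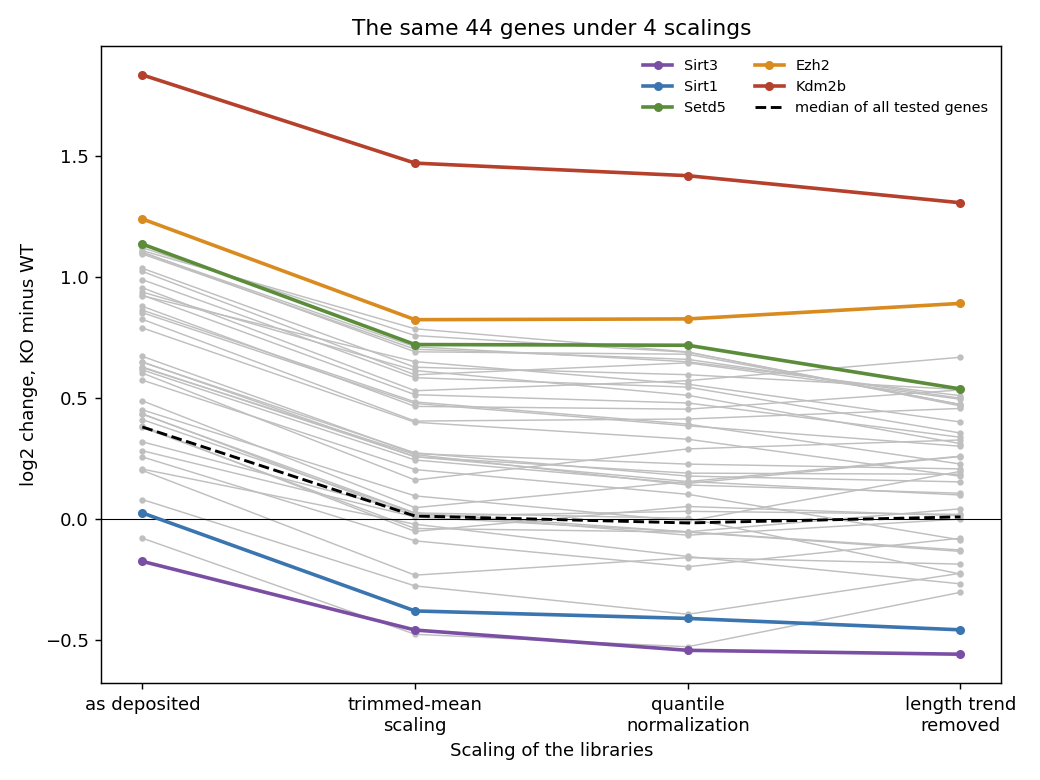
Log2 change of the 44 genes (lines) as deposited and under 3 other scalings of the libraries, with the median of all tested genes as a dashed line. The other scalings bring the median gene close to 0 and lower the enzyme genes with it; Kdm2b is the highest line in all 4 and Sirt1 falls below 0 in 3.

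A single scale factor per library cancels from the ratio of 2 genes within it, while quantile normalization and removal of the length trend do not. Ratios were formed for 10 pairs of related genes picked after the values had been seen. In all 10 the gene with the larger log2 change was put on top, so the direction is set by that choice and has no test, and the ratios describe only size and spread. Kdm2b to Kdm2a was 0.305 and 0.542 in WT and 0.943 and 0.833 in the libraries labelled KO, and Sirt2 to Sirt1 was 1.34 and 1.29 against 3.22 and 2.12. Tet2 to Tet3 was 0.466 and 0.385 against 0.793 and 0.721, and Dnmt3a to Dnmt3b 2.57 and 4.19 against 5.38 and 7.71. For Sirt2 to Sirt1 and Tet2 to Tet3 the WT libraries lay close together, while for Kdm2b to Kdm2a and Dnmt3a to Dnmt3b they were further apart on a log scale than the nearest libraries of the 2 groups. Ezh2 to Ezh1 was 1.14 and 1.42 against 2.36 and 1.54, so that KO 2 lay close to WT 2. Kdm1a to Kdm1b and Setdb1 to Setdb2 overlapped. A shifted ratio shows unequal change, not that the second gene did not change.

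**Figure D4:**
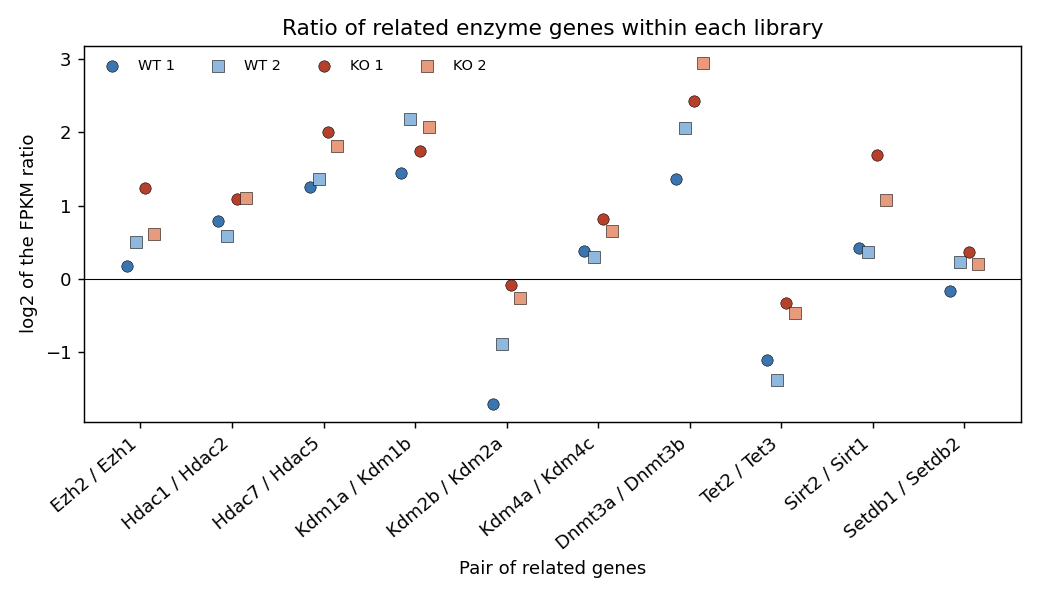
Log2 of the FPKM ratio of 10 pairs of related genes in each library; blue symbols are WT and red symbols the libraries labelled KO. The first gene of each pair is the one with the larger log2 change, which sets the direction; blue and red overlap for Kdm1a to Kdm1b and Setdb1 to Setdb2.

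The enzyme genes are long, and change moved with transcript length over all genes. Their median longest transcript was 4430 nt, against 3197 nt for the genes tested. The tested genes were split by length into 4 groups of equal size. From the shortest to the longest group the median log2 change was 0.12, 0.34, 0.45 and 0.59, and the share that passed upward was 11.8%, 19.4%, 28.4% and 43.4%. Of the enzyme genes 0 of 3, 5 of 11, 3 of 9 and 15 of 21 passed upward in these groups. In the longest their median was 0.94, and in the third it was 0.43, just under that of all genes. Spearman's rho between length and log2 change, as a description across genes that share the same libraries, was 0.316 over 10873 genes and 0.506 over the 44. With the length trend removed, an alternative chosen after seeing the data, 0 of the 44 passed (11 were higher and 1 lower at an unadjusted p under 0.05, limma), against 2.43% higher and 1.52% lower over all genes. Kdm2b then had a log2 change of 1.31 with an adjusted p of 0.0502. What length itself contributed was not tested.

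**Figure D5:**
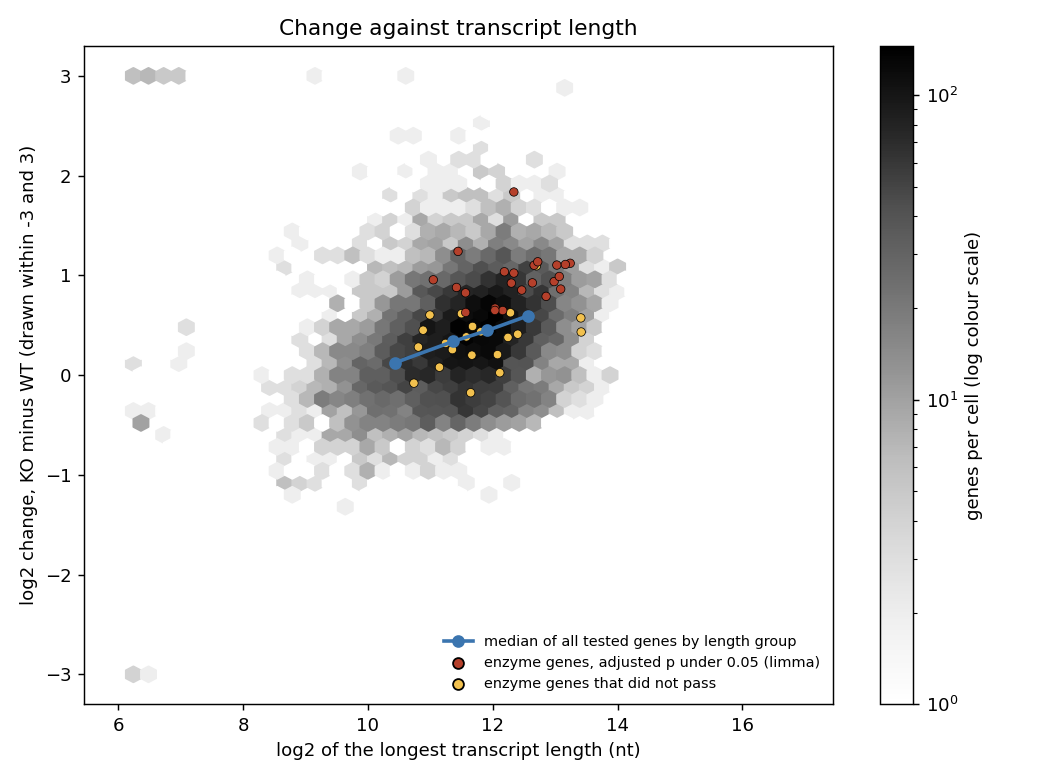
Log2 change (KO minus WT) against log2 of the longest transcript length for all tested genes with a length (grey, darker for more genes) and the 44 enzyme genes (red passed, yellow did not); the blue line joins the medians of the 4 length groups. The blue line climbs from 0.12 to 0.59, and 15 of the 21 enzyme genes in the longest group are red.

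Genes that work with these enzymes were counted in the same fit, against the same backgrounds of 25.6% upward as deposited and 4.52% after trimmed-mean scaling. Among histone acetyltransferases, which oppose the deacetylases, 7 of 16 passed upward as deposited and 1 after scaling (Myst3, 6.22 and 6.39 against 16.1 and 16.9 FPKM). Of other histone methyltransferases 16 of 27 passed, and 3 after scaling: Whsc1 (1.62 and 2.29 against 9.62 and 6.70 FPKM), Mll1 and Mll2. Of a list of 29 Polycomb partners, which also holds genes of complexes without Ezh1, Ezh2 or Kdm2b, 10 passed, and Asxl1 alone after scaling. Eed and Suz12, subunits of PRC2 named here after their values were seen, did not pass. Their log2 changes were 0.02 and 0.84 (adjusted p = 0.964 and 0.0512, limma). Of other PRC2 members of the list, also named after their values were seen, Aebp2, Jarid2 and Phf19 passed as deposited. Their log2 changes were 1.01, 0.999 and 0.76 (adjusted p = 0.0175, 0.0298 and 0.039, limma). Rbbp4, Rbbp7, Phf1 and Mtf2 did not pass. Subunits of the corepressors that hold Hdac1, Hdac2, Hdac3 and Kdm1a passed in 12 of 22. Of the genes that maintain, read or remove DNA methylation 6 of 18 passed. Uhrf1, which guides Dnmt1 to newly copied DNA, measured 0.582 and 0.592 against 9.65 and 4.67 FPKM and passed after scaling too. Dnmt1 measured 5.62 and 5.07 against 17.6 and 11.9 FPKM (log2 change 1.29; adjusted p = 0.0153, limma), and its adjusted p was 0.0551 after scaling. None of these lists had a gene that passed downward, as deposited or after scaling.

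Most markers of dividing cells were higher in the libraries labelled KO, as were Ezh2, Setd8 and Dnmt1. Of 17 tested proliferation genes 13 passed upward, and 7 after trimmed-mean scaling. Mki67 measured 0.939 and 0.937 FPKM in the WT libraries and 21.7 and 9.39 FPKM in those labelled KO, and Top2a 0.948 and 1.70 against 24.3 and 10.4 FPKM. As for Ezh2 and Dnmt1, KO 1 was above KO 2 in both, while Setd8 was close between them (15.6 and 15.3 FPKM). Other enzyme genes that passed went either way, with Setd2 and Tet2 higher in KO 2 and Setdb1 and Setd7 higher in KO 1. The 4 genes that did not pass included Tyms, a thymidylate synthase, at 365 and 273 against 234 and 204 FPKM (log2 change -0.53; adjusted p = 0.165, limma), whose log2 change was -0.98 after scaling (adjusted p = 0.0519). Pcna, the sliding clamp of DNA replication, overlapped, at 94.6 and 161 against 122 and 141 FPKM. Tyms and Pcna were singled out after their values were seen. Whether the share of dividing cells has a part in the enzyme values was not tested. In bulk libraries, fewer cells of a type and less RNA per cell cannot be told apart.

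Markers of other cells varied between the libraries as well. The 6 markers listed for CD4 T cells summed to 637 and 818 FPKM in the WT libraries and 1145 and 1093 FPKM in those labelled KO. For 4 of the 6 both libraries labelled KO lay above both WT libraries, among them Cd4 at 86.3 and 87.3 against 211 and 185 FPKM. Cd3g, the largest part of the sum, overlapped at 262 and 362 against 356 and 332 FPKM, and Cd28 overlapped as well. Erythroid markers (10 rows, all with a higher mean in the libraries labelled KO) summed to 6.33 and 99.4 against 396 and 321 FPKM, so that WT 1 was the lowest; Hbb-b1 was under 0.1 FPKM in all 4. The myeloid sum followed neither group cleanly. The 9 myeloid markers summed to 5.23 and 44.3 against 26.8 and 61.5 FPKM, with Cd14 at 0 in 3 libraries. The 7 B cell markers summed to 4.88 and 5.14 against 9.99 and 9.73 FPKM, with Pax5 at 0 in WT 2. B cell RNA was thus low throughout. The 4 plasma cell markers summed to 14.9 and 21.2 against 29.98 and 33.8 FPKM. Xbp1 was the largest part of that sum (9.24 and 14.2 against 18.2 and 20.25 FPKM), and Sdc1 overlapped (1.01 and 0.775 against 0.477 and 0.820 FPKM). The 4 NK markers summed to 11.3 and 10.1 against 26.2 and 23.4 FPKM, nearly all of it Nkg7. The CD8 sum (11.3 and 10.7 against 11.1 and 11.6 FPKM) and the platelet sum (1.16 and 1.68 against 1.58 and 1.16 FPKM, with Ppbp at 0 in all 4) overlapped. Nearly all of the CD8 sum was Cd8b1, with Cd8a under 1 FPKM in all 4 libraries. The 4 dendritic markers summed to 33.9 and 27.4 against 24.5 and 25.5 FPKM, nearly all of it Siglech and Xcr1. The part of these cells in the enzyme values was not tested.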

How the data were processed

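Per the labels' protocols, 200 ng of total RNA went into each NEBNext Ultra RNA library. Per the file headers, the authors deposited FPKM values by gene symbol, in a separate table for each library. Per the submitters' processing notes, Bowtie 0.12.2 and the build mm8 are listed, with no role stated. For the FPKM step, the program, gene annotation and filters were not given in the sources used here. FPKM divides by transcript length and mapped total, so both enter every value.

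From these values log2(FPKM + 1) was tested with limma 3.58.1 in R 4.3.3 (trend, two-sided, Benjamini-Hochberg over all 11074 rows with at least 1 FPKM in at least 2 libraries, threshold 0.05); fold changes on that scale understate low genes. An exact permutation test of 2 against 2 libraries cannot go below 0.333. Tables were handled with Python 3.11.15 and pandas 2.3.3. The script was tested on simulated data. Trimmed-mean factors were computed from FPKM (0.799, 0.914, 1.20 and 1.15 for WT 1, WT 2, KO 1 and KO 2). Depth was estimated from the steps of low values (0.005 to 0.15 FPKM) and is approximate. Only longer genes with 1 annotated transcript and values of a few estimated fragments entered its absolute scale. Of these values, 50.7% to 60.9% lay within 0.05 of a whole number of fragments, too few to recover counts. The depth was chosen to make that share as large as possible, so the share is no separate check of it. Lengths are those of the longest transcript in another build than mm8, so no positions are given for the expression values, and promoter positions are RefSeq's.

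The genes and all lists were chosen with earlier results of these data known. The 4 library values are given for each enzyme gene that passed and for the lowest and highest change. From each other list up to 4 genes with the smallest unadjusted p could be named. Alternatives were other scalings, pseudocounts, filters, a replicate block and leaving out each library. The removal of the length trend and the pairs of related genes were chosen after seeing the data.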

Additional observations from a re-analysis of the deposited data

How the results depend on the processing

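No enzyme gene passed downward under any alternative run. The number passing upward (23 as deposited) was 23 with a pseudocount of 0.1 or 5 and without limma's trend. It was 14 of 30 at a mean of at least 5 FPKM, 2 with trimmed-mean scaling, and 0 with quantile normalization, with the length trend removed, and with no filter. Leaving out 1 library gave 0 to 17, with 0 without WT 1. All genes passing upward (2832) numbered 1562 at a mean of at least 5 FPKM, 501, 179 and 269 under the 3 scalings in that order, 3 with no filter, and 9 to 2173 without 1 library. Genes passing downward (111) numbered 415 with trimmed-mean scaling, 168 with the length trend removed, 0 with no filter and 1 to 132 without 1 library. Calls were 69.9% higher with quantile normalization and 61.6% with the length trend removed.

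With the replicate number as a replicate block, 27 enzyme genes, 3909 genes upward and 230 downward passed. The 4 enzyme genes added by the block were Kdm6b (adjusted p = 0.0002257, limma), Kdm1b (0.0143), Hdac10 (0.0177) and Tet3 (0.0245). The deviations of WT 1 and KO 1 correlated at 0.108, and with only 2 numbers this does not show that they pair the libraries.

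The median change of the enzyme genes relative to all genes (0.27) was 0.30 and 0.22 with pseudocounts of 0.1 and 5, 0.52 with no filter, 0.46 at a mean of at least 5 FPKM, 0.22 with quantile normalization, 0.21 with the length trend removed, and 0.25 to 0.39 without 1 library. With no filter all 6 other lists gave 0 calls. With quantile normalization they gave 0, except 2 for proliferation. With the length trend removed they gave 0, except 1 for DNA methylation and 2 for proliferation. With trimmed-mean scaling they gave 1 each for acetyltransferases, Polycomb partners, DNA methylation and corepressors, 3 for other methyltransferases and 7 for proliferation. At a mean of at least 5 FPKM other methyltransferases gave 9 and proliferation 8. Without 1 library the ranges were 0 to 7 for acetyltransferases, 0 to 12 for other methyltransferases, 0 to 7 for Polycomb partners, 0 to 6 for DNA methylation, 0 to 10 for corepressors and 0 to 14 for proliferation.

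Signs turned only in genes that did not pass. With trimmed-mean scaling the log2 change was -0.023 for Dnmt3b, -0.23 for Hdac2, -0.28 for Hdac8, -0.041 for Kdm3a, -0.053 for Setd3, -0.092 for Setd4 and -0.38 for Sirt1. With quantile normalization it was -0.16 for Dnmt3b, -0.16 for Hdac2, -0.055 for Hdac5, -0.40 for Hdac8, -0.055 for Kdm3a, -0.20 for Setd4, -0.41 for Sirt1, -0.054 for Sirt4, -0.068 for Sirt5 and -0.010 for Sirt6. With the length trend removed it was -0.27 for Dnmt3b, -0.19 for Hdac2, -0.13 for Hdac5, -0.23 for Hdac8, -0.14 for Kdm3a, -0.23 for Kdm5a, -0.081 for Setd4, -0.46 for Sirt1, -0.0018 for Sirt5 and -0.088 for Tet3. Without 1 library it ran from -0.16 to 0.32 for Hdac8, -0.33 to 0.17 for Setd6, -0.22 to 0.27 for Sirt1, -0.38 to 0.031 for Sirt3 and -0.048 to 0.68 for Sirt5. The cause was not tested. With 2 libraries a group, and an FPKM unit that keeps no counts, the precision of low genes such as Hdac6 and Sirt4 is limited.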
